A study of Arabidopsis thaliana with 6 samples.

Results

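The genes described here were higher in H2O2-treated and in light-grown seedlings than in dark-grown seedlings, and reached nearly the same level under both conditions. They were found among 13356 genes of Arabidopsis thaliana, accession Col-0, that have an array probe set naming a single gene. A gene was taken where the mean log2 level with H2O2 and the mean in light were each at least 1 above the mean in the dark, where these 2 means differed by no more than 0.5, and where both dark arrays lay below the other 4. The rule found 195 genes, 1.46% of those measured. All 3 differences between the groups were used by the rule, so the levels of these genes are given as a description, with no test.

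Transcripts of seedlings were measured on 6 Affymetrix ATH1 arrays, 2 biological replicates for each of 3 groups. All were Col-0 with no transgene named in the labels, 7 days old and grown on MS medium. The H2O2 group grew in the dark with 5 mM hydrogen peroxide, the light group grew under 16 h of light and 8 h of dark a day, and the dark group grew in the dark with no addition. The design text gives darkness as a means of lowering the H2O2 that seedlings make themselves, which makes the dark group the reference for both other groups. Neither the time of H2O2 addition nor the hour of harvest is stated in the labels. Values are log2 expression, on which a difference of 1 is a 2-fold change. Each error given with a difference is its standard error (SE) from a limma fit over all 6 arrays, with 2 arrays a group.

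A seedling kept in the dark follows a growth programme in which the stem elongates, the cotyledons stay closed and chloroplasts do not form. Light, sensed by phytochromes and cryptochromes, ends that programme and switches on genes of photosynthesis. H2O2 is a by-product of photosynthesis and respiration and also a signal, and plants hold it in check with catalases, peroxidases and the ascorbate and glutathione cycle. Members with a role known from the annotation act in chromatin, RNA processing, membrane traffic, protein folding, dehydration and primary metabolism, and are described in that order.

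Over the 195 genes the difference between H2O2 and dark had a median of 1.37 and ran from 1.005 to 3.62, with SEs of 0.123 to 0.35. The difference between light and dark had a median of 1.40 and ran from 1.007 to 3.27. Over all 13356 genes the same medians were -0.027 and -0.064. The mean of both differences was at least 1.5 for 72 of the genes, at least 2 for 21 and at least 3 for 1. The limma test called all 195 higher with H2O2 and all 195 higher in light (Benjamini-Hochberg adjusted p under 0.05 over 22746 probe sets), against 12.3% of probe sets called higher and 8.18% lower with H2O2, and 23.0% called higher and 25.0% lower in light. These counts follow from the rule. Dim here means a log2 level under 5.16, below which 40% of probe sets had their mean. In the dark 76 of the genes were dim (39.0%, against 47.1% of all genes). The number was 8 with H2O2 and 8 in light, and the size of a difference from a dim level is uncertain. Besides genes flagged below, the 76 include LD, NERD, SWC2, AT3G21060, HAT3.1, NTMC2T6.1, NET1B, PDF2.1 and B160.

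**Figure D1:**
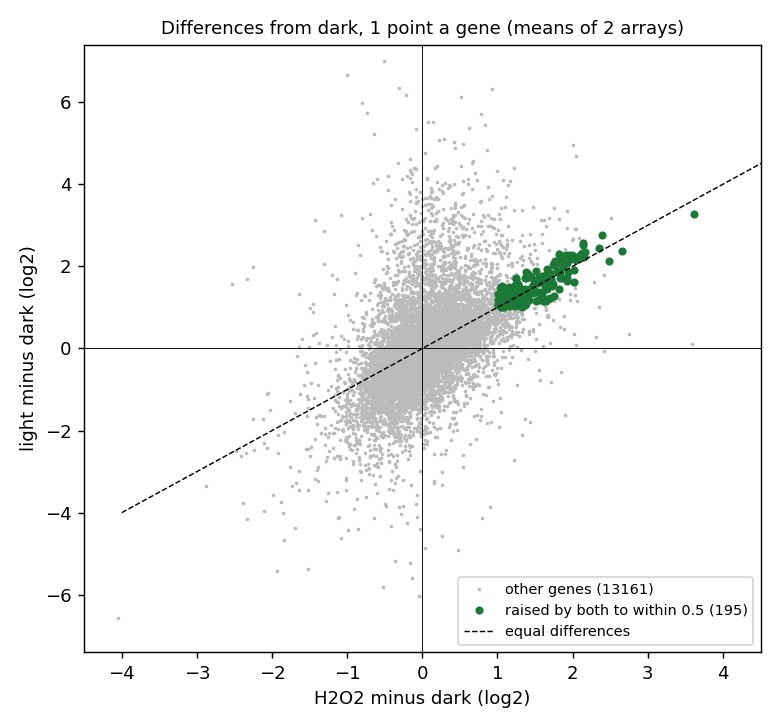
Mean log2 difference of H2O2 minus dark (x axis) against light minus dark (y axis), 1 point for each of 13356 genes, with the 195 genes in green and equal differences on the dashed line. The green points fill a band along the dashed line from 1 upwards, with 1 gene, AT3G05900, at 3.62 and 3.27.

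Levels with H2O2 and in light lay close together within the group, as the rule requires. Light was the higher of both means for 121 genes and H2O2 for 74, with a median difference of 0.055 between light and H2O2. The arrays of these groups interleaved for 110 genes. Both light arrays lay above both H2O2 arrays for 54 genes and below them for 31, against 27.1% and 37.4% of all genes. The limma test called 6 genes higher in light than with H2O2 and 3 lower, against 17.4% and 22.0% of probe sets (39.5% either way). Without either H2O2 array in turn, 1 gene was called higher in light, and 4 without either light array. The 6 were AT2G15270, AT4G38900, LTI30, AT3G23310, AT5G13980 and AT5G06440, at 0.41 to 0.48. The 3 called lower were AT5G16680, AT2G31130 and AT5G22450, and these, like the 6, were looked up after their values were seen. At the 0.5 bound the nearest genes inside were AT2G24830 at 0.499, AT2G31130 at -0.496 and LTI30 at 0.477, and the nearest outside were AT1G28510 at 0.504, AT5G61300 at 0.511 and AT1G65950 at 0.514.

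The genes with the largest mean of both differences were AT3G05900, AT5G03660, AT2G02160, TPLATE, AT5G09850, AT5G11500, MED19A, AT5G14720, AT5G62550 and AT5G16730. AT3G05900 had 8.65 and 8.78 with H2O2 and 8.24 and 8.47 in light, against 5.17 and 5.01 in the dark. Its arrays with H2O2 and in light all lay more than 3 above its dark arrays, and the differences were 3.62 ± 0.14 with H2O2 and 3.27 ± 0.14 in light (SE). AT5G03660 followed with 2.39 ± 0.24 with H2O2 and 2.76 ± 0.24 in light, and AT2G02160 with 2.65 ± 0.31 and 2.36 ± 0.31. AT5G11500 stood at 10.18 and 10.13 with H2O2 and at 10.56 and 10.53 in light, against 8.34 and 7.69 in the dark. It was both among these 10 genes and among the 6 brightest of the group. AT5G09850, AT5G14720, AT5G62550 and AT5G16730 had differences of 2.13 to 2.17 with H2O2 and of 2.24 to 2.56 in light. The other bright members without a named role, AT2G45820, AT1G01490 and AT5G46020, had differences of 1.13 to 1.52 with H2O2 and of 1.15 to 1.32 in light. Of the 10 genes, TPLATE, AT5G09850 and AT5G11500 were not dim in the dark.

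The annotation gives 33 of the 195 genes a symbol of their own (16.9%, against 12% of all genes), and the others are listed by locus, a few of them with a symbol among their synonyms. The genes of chromatin and transcription come first. INO80, the ATPase of a complex that moves nucleosomes, had 7.51 and 7.97 with H2O2 and 7.53 and 7.46 in light, against 6.48 and 6.16 in the dark. CHR17, a remodelling ATPase of the ISWI kind, had 7.74 and 7.32 with H2O2 and 7.27 and 7.38 in light, against 6.76 and 5.78 in the dark. Both remodellers interleaved between H2O2 and light, and CHR17 had dark arrays almost 1 apart. SWC2, a subunit of the SWR1 complex that deposits a histone variant, was higher by 1.09 ± 0.13 with H2O2 and by 1.35 ± 0.13 in light. AT3G21060, annotated as RbBP5-like and so akin to a subunit of histone H3 methyltransferase complexes, was higher by 1.38 ± 0.15 with H2O2 and by 1.72 ± 0.15 in light. In these 2 genes both light arrays lay above both H2O2 arrays. NERD, named for a need in DNA methylation that does not use RDR2, was higher by 1.55 ± 0.20 and 1.75 ± 0.20.

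MED19A, a subunit of Mediator, the complex that links transcription factors to RNA polymerase II, had 5.93 and 6.32 with H2O2 and 6.04 and 5.49 in light, against 4.06 and 3.23 in the dark. The differences were 2.49 ± 0.28 and 2.12 ± 0.28, from a dim level in the dark. LD (luminidependens), a homeodomain protein of the autonomous flowering pathway, had 6.46 and 6.80 with H2O2 and 6.73 and 6.25 in light, against 5.13 and 4.42 in the dark. Its differences were 1.86 ± 0.25 and 1.72 ± 0.25. GT2, a trihelix DNA-binding factor, was higher by 1.67 ± 0.20 with H2O2 and by 1.69 ± 0.20 in light, with interleaved arrays. AT4G38900, the leucine zipper factor bZIP29, was higher by 1.41 ± 0.13 with H2O2 and by 1.81 ± 0.13 in light and is 1 of the 6 genes called higher in light than with H2O2. HAT3.1, a homeodomain protein with a PHD finger, lay at the light bound with 1.007 ± 0.20 in light and 1.33 ± 0.20 with H2O2. KELP, a transcriptional coactivator, had 1.01 ± 0.21 with H2O2 and 1.32 ± 0.21 in light. Fixed lists of chromatin genes and of Mediator and transcription machinery hold only some of these members. SWC2, AT3G21060, NERD, LD, GT2, HAT3.1 and KELP are on none of the lists used here, so the list counts leave them out. For both lists and every list below, the share of members over all 13356 genes was 1.46%. The shares called over all genes were 11% higher and 8.1% lower with H2O2, and 21.0% higher and 22.9% lower in light. Of 27 genes measured on the chromatin list, 2 (INO80 and CHR17) belong to the group. With H2O2 5 were called higher and 2 lower, and in light 8 were called higher and 3 lower. Their median differences were 0.16 with H2O2 and 0.12 in light. Of 13 genes of Mediator and transcription machinery, MED19A alone belongs to it, 2 were called higher and 3 lower with H2O2, and 5 higher and 2 lower in light.

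Among genes of RNA processing, PRP39-2, a splicing factor gene of the U1 complex, had 4.90 and 4.56 with H2O2 and 4.67 and 4.79 in light, against 3.16 and 3.41 in the dark. Its differences of 1.44 ± 0.16 with H2O2 and 1.44 ± 0.16 in light place it among the 5 genes with the smallest gap between both groups, and it was dim on every array. THO1, of the THO complex that couples transcription to mRNA export, was higher by 1.18 ± 0.14 with H2O2 and by 1.24 ± 0.14 in light. NIH, a nuclear DEIH-box helicase gene, was higher by 1.23 ± 0.13 and 1.02 ± 0.13, with both H2O2 arrays above both light arrays. THO1 and NIH are not on the RNA processing and decay list. Of its 24 genes, PRP39-2 alone belongs to the group, 5 were called higher and 2 lower with H2O2, and 2 higher and 7 lower in light. The other genes with the smallest gap were AT4G32360, AT4G39690, AT5G24500 and AT1G03820, with differences from dark of 1.38 to 1.83 and gaps of at most 0.011 in size.

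**Figure D2:**
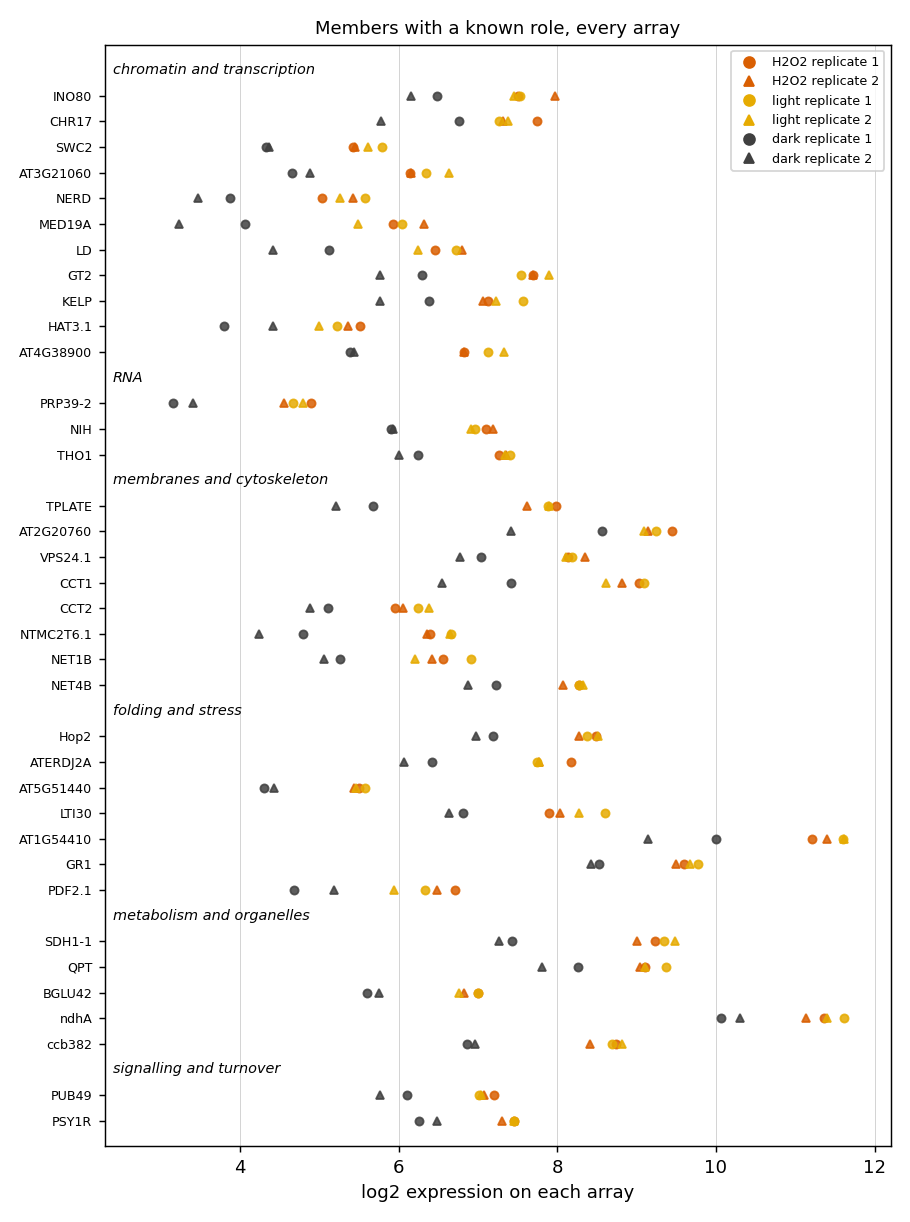
Log2 expression (x axis) of the genes with an annotated role, grouped by role, on each of the 6 arrays, with replicate 1 as circles and replicate 2 as triangles. In every row the grey dark points lie left of the orange H2O2 and yellow light points, which overlap in most rows.

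TPLATE, a core part of the adaptor complex of clathrin-mediated endocytosis that was first found at the cell plate, had 7.98 and 7.62 with H2O2 and 7.88 and 7.89 in light, against 5.68 and 5.21 in the dark. All 4 arrays with H2O2 and in light lay well above both dark arrays, with differences of 2.35 ± 0.19 and 2.44 ± 0.19. AT2G20760, on the same list of TPLATE complex and clathrin genes, had 9.45 and 9.15 with H2O2 and 9.24 and 9.09 in light, against 8.57 and 7.42 in the dark. Its dark arrays differed by more than 1, and the differences of 1.30 ± 0.31 and 1.17 ± 0.31 have the wider error that goes with it. These 2 were the single genes called higher of the 12 on that list, with H2O2 as in light, while none was called lower by limma with H2O2 (4 at an unadjusted p under 0.05) and 5 were called lower in light. The list's medians were -0.033 with H2O2 and -0.25 in light. VPS24.1, of the ESCRT-III complex that sorts membrane proteins into vacuole-bound vesicles, was higher by 1.34 ± 0.15 with H2O2 and by 1.24 ± 0.15 in light. Of 32 vesicle traffic genes measured, 6 were called higher and none lower by limma with H2O2 (3 lower at an unadjusted p under 0.05), and 5 higher and 6 lower in light. TPLATE and VPS24.1 were the members.

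CCT1 and CCT2 encode the enzyme that makes CDP-choline, the regulated step of phosphatidylcholine synthesis, and both belong to the group. CCT1 had 9.03 and 8.81 with H2O2 and 9.09 and 8.62 in light, against 7.42 and 6.55 in the dark. CCT2 had 5.96 and 6.06 with H2O2 and 6.24 and 6.39 in light, against 5.11 and 4.88 in the dark. The difference was larger for CCT1, at 1.94 ± 0.27 with H2O2 and 1.87 ± 0.27 in light, than for CCT2, at 1.01 ± 0.14 and 1.32 ± 0.14, though CCT2 starts from a dim level and the gap between the genes was not tested. NTMC2T6.1, a membrane-anchored protein with C2 domains, was higher by 1.86 ± 0.18 with H2O2 and by 2.13 ± 0.18 in light.

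NET1B and NET4B belong to the NETWORKED family of actin-binding proteins. NET1B had 6.56 and 6.42 with H2O2 and 6.91 and 6.21 in light, against 5.26 and 5.06 in the dark. NET4B had 8.28 and 8.07 with H2O2 and 8.27 and 8.32 in light, against 7.23 and 6.87 in the dark. Both were more than 1 higher under either condition and both interleaved. Of 66 cytoskeleton genes measured, 19 were called higher and none lower by limma with H2O2 (2 lower at an unadjusted p under 0.05), at a median of 0.27, and 21 were called higher and 13 lower in light, at a median of 0.013. NET1B and NET4B were the 2 members on this list. Another 5 of its genes were at least 1 higher with H2O2 than in the dark and were more than 0.5 lower in light than with H2O2.

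Hop2, a co-chaperone that joins Hsp70 and Hsp90, had 8.49 and 8.28 with H2O2 and 8.37 and 8.51 in light, against 7.19 and 6.97 in the dark, which gives 1.31 ± 0.15 and 1.36 ± 0.15. ATERDJ2A, a J-domain protein of protein import into the endoplasmic reticulum, was higher by 1.73 ± 0.18 with H2O2 and by 1.52 ± 0.18 in light. AT5G51440, on the lists of heat shock genes and of the mitochondrial dysfunction response, had 5.5 and 5.44 with H2O2 and 5.58 and 5.47 in light, against 4.31 and 4.43 in the dark, where it was dim. Of 11 genes measured on the heat shock and chaperone list, 5 were called higher and 1 lower with H2O2, and 6 higher and 1 lower in light. Hop2 and AT5G51440 were its members, and ATERDJ2A is not on that list. Of 5 genes of the mitochondrial dysfunction response, 2 were called higher and none lower by limma with H2O2 (2 lower at an unadjusted p under 0.05), and 2 higher and 2 lower in light.

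GR1, a glutathione reductase that regenerates reduced glutathione, had 9.60 and 9.50 with H2O2 and 9.77 and 9.67 in light, against 8.53 and 8.43 in the dark. The differences were 1.07 ± 0.13 and 1.24 ± 0.13, and both light arrays lay above both H2O2 arrays. It was the single gene called with H2O2 among 5 antioxidant genes, all 5 of which were called higher in light. Dehydrins, which protect cells as water is lost, gave 2 members. AT1G54410, the dehydrin HIRD11 and the brightest gene of the group, had 11.21 and 11.40 with H2O2 and 11.60 and 11.61 in light, against 10 and 9.14 in the dark. LTI30 had 7.89 and 8.03 with H2O2 and 8.60 and 8.28 in light, against 6.81 and 6.64 in the dark, and was called higher in light than with H2O2. Of 8 genes of cold, dehydration and late embryogenesis measured, 5 were called higher with H2O2 and 3 in light, and limma called none lower in either (0 at an unadjusted p under 0.05). Of these, 4 were at least 1 higher with H2O2 but were more than 0.5 lower in light than with H2O2, and LTI30 was the single list gene to meet the rule. PDF2.1, a defensin gene, was higher by 1.67 ± 0.20 with H2O2 and by 1.20 ± 0.20 in light, with both H2O2 arrays above both light arrays.

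SDH1-1, the flavoprotein subunit of mitochondrial succinate dehydrogenase, had 9.23 and 9.0 with H2O2 and 9.35 and 9.48 in light, against 7.43 and 7.26 in the dark. This is a difference of 1.77 ± 0.15 with H2O2 and of 2.07 ± 0.15 in light. QPT, of NAD synthesis, was higher by 1.04 ± 0.18 and 1.20 ± 0.18, and BGLU42, a beta-glucosidase gene, by 1.24 ± 0.15 and 1.20 ± 0.15. The group holds 1 plastid-encoded gene of 69 measured, ndhA, a subunit of the chloroplast NADH dehydrogenase-like complex, which had 11.36 and 11.14 with H2O2 and 11.61 and 11.40 in light, against 10.06 and 10.30 in the dark. It also holds ccb382, of mitochondrial cytochrome c maturation, at 1.66 ± 0.15 and 1.85 ± 0.15. Just under the H2O2 bound of 1 lay atpB at 0.997, F2KP at 0.985 and rpl32 at 0.982, and just above it PSY1R, AT3G10530 and AT1G52380 at 1.005 to 1.009. PSY1R, a receptor kinase for a sulfated growth peptide, had 7.45 and 7.30 with H2O2 and 7.45 and 7.45 in light, against 6.26 and 6.48 in the dark. Just under the light bound lay AT1G79950, AT4G11160 and AT4G33060, at 0.992, 0.987 and 0.984, and just above it HAT3.1, AT2G25670 and AT2G20330, at 1.007 to 1.011. PUB49, a U-box protein gene, was higher by 1.20 ± 0.15 with H2O2 and by 1.08 ± 0.15 in light. The remaining gene with a symbol, B160, was higher by 1.06 with H2O2 and by 1.41 in light.

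No member came from the lists of photosynthesis and Calvin cycle genes (31 measured), light signalling genes (2), DNA repair and replication genes (35), transporters (45) or cytochrome P450, UGT and GST genes (92). Over all genes the share of members was 1.46%, at which lists of these sizes would hold few members or none. The photosynthesis list had 20 genes called higher in light and 5 with H2O2 and none called lower by limma (0 in light and 4 with H2O2 at an unadjusted p under 0.05), with medians of 1.31 in light and 0.021 with H2O2. Among DNA repair and replication genes 17 were called higher and 3 lower in light, and 6 higher and 1 lower with H2O2. Both measured light signalling genes were called higher with H2O2, and in light 1 was called higher and 1 lower. Transporters had 1 called higher and 4 lower with H2O2, and 10 higher and 13 lower in light. The P450, UGT and GST list had 14 called higher and 9 lower with H2O2, and 31 higher and 25 lower in light. Of 81 genes on the transcription factor list, AT4G38900 is the 1 member, 8 were called higher and 6 lower with H2O2, and 7 higher and 17 lower in light. Of 56 genes of ubiquitin and proteolysis, PUB49 is the 1 member, 6 were called higher and 6 lower with H2O2, and 7 higher and 21 lower in light.

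The group makes up 43.0% of the 454 genes that were at least 1 higher with H2O2 than in the dark with no overlap of those arrays, and 13.2% of the 1472 genes that were so in light. Both comparisons use the same dark arrays, which ties their differences together. Of 294 genes at least 1 higher in both, 195 (66.3%) had light within 0.5 of H2O2, 88 had light more than 0.5 above H2O2 and 11 more than 0.5 below it.

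The rule was also applied to the arrays of a single replicate number and the differences were read on the arrays of the other number, which that choice did not use. Replicate 1 alone chose 167 genes, and on the replicate 2 arrays these had a median of 1.41 for H2O2 minus dark, 1.47 for light minus dark and 0.058 for light minus H2O2. Both differences from dark were again at least 1 for 123 of them (73.7%, against 2.73% of all genes), and light lay within 0.5 of H2O2 for 137 (82.0%, against 64.9%). The whole rule was met again by 104 of the 167 (62.3%, against 1.7% of all genes). Replicate 2 alone chose 227 genes, with medians of 1.09, 1.26 and 0.11 on the replicate 1 arrays. Of these, 121 (53.3%, against 2.03% of all genes) were again at least 1 higher in both, and 183 (80.6%, against 66.8%) had light within 0.5 of H2O2. The whole rule was met again by 104 of the 227 (45.8%, against 1.25% of all genes). In both readings the values on the other arrays lay above 0 for nearly all genes, with H2O2 above dark for 165 of 167 and for 220 of 227, against 47.0% and 47.5% of all genes. The furthest below 0 were ndhF, ndhG, petN, rpl20 and AT2G07721, chosen in replicate 2. On the replicate 1 arrays they ran from -2.025 to -0.801 with H2O2 and from -2.935 to -1.67 in light. In each reading both differences subtract the same dark array, so their agreement with each other is partly built in. The arrays may have been normalised together, and the replicate numbers are not shown to pair them. The same arrays also defined the group, so these readings describe how the replicates agree and are no independent test of it.

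**Figure D3:**
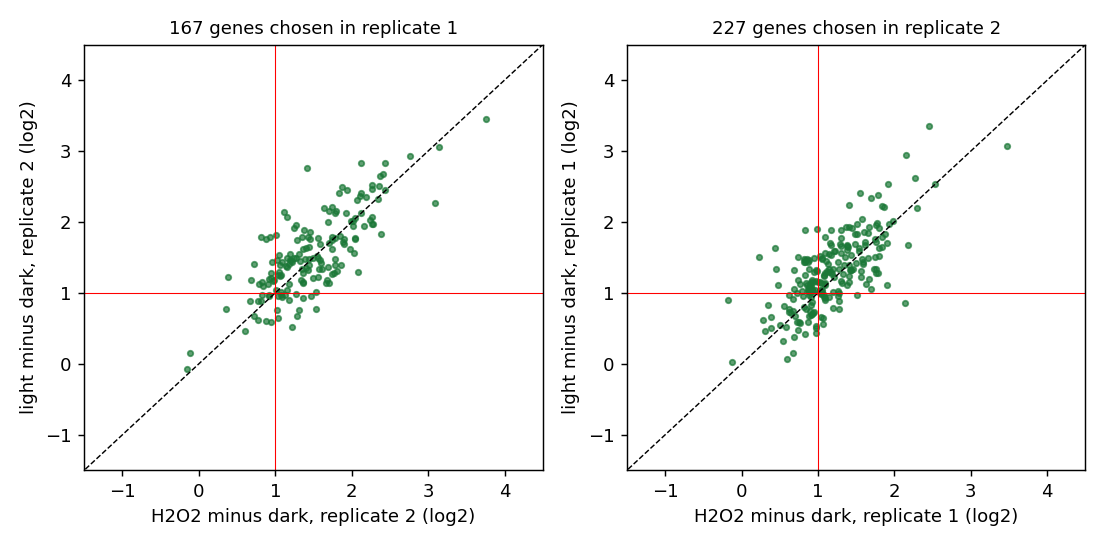
Log2 differences of H2O2 minus dark (x axis) and light minus dark (y axis) on the arrays of the replicate number that was not used to choose the genes, 1 point a gene within the axes, with red lines at 1 and equal differences dashed. The genes ndhF, ndhG, petN, rpl20 and AT2G07721, chosen in replicate 2, lie below the y axis range and are not drawn. Of the genes chosen in replicate 1, 123 of 167 lie above both lines on the replicate 2 arrays; of those chosen in replicate 2, 121 of 227 do so on the replicate 1 arrays.

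The genes of the group were long, a property the rule did not use. The median span of the gene from start to end, introns included, was 3077 bp over the 194 members with a span in the RefSeq annotation of TAIR10.1, against 2105 bp over 13286 genes. The middle 50% of members lay between 2421 and 4466 bp, against 1400 and 3044 bp. Of the members, 159 were longer than the median of all genes. In the shortest decile of genes 1 of 1335 belonged to the group (0.0749%), and in the longest decile 53 of 1327 (3.99%). The share of genes at least 1 higher in light was 4.79% in the shortest decile and 13.0% in the longest, and lay between 12.1% and 14% from the fifth decile on. Over all genes the median of H2O2 minus dark was also higher in long genes, at -0.080 in the shortest decile and 0.13 in the longest, and that of light minus dark was -0.11 and 0.0024. Genes with light more than 0.5 above H2O2 had a median span of 2987 bp (n = 88) and those with light more than 0.5 below H2O2 one of 3241 bp (n = 11), so long span is shared with both neighbouring classes. Among the longest named members were INO80 with 8744 bp, NERD with 8580 bp and NIH with 7246 bp, and among the shortest PDF2.1 with 874 bp and LTI30 with 969 bp.

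**Figure D4:**
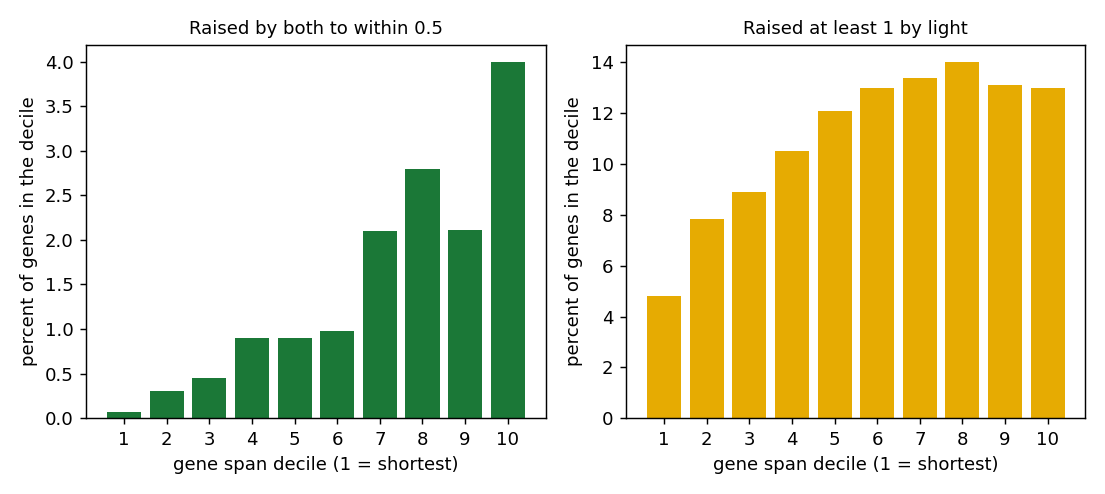
Percent of genes that belong to the 195 (left) and percent at least 1 higher in light than in the dark (right), on the y axes, by decile of gene span from shortest to longest on the x axes, with bars from 0. The left bars run from 0.0749% in the shortest decile to 3.99% in the longest, and the right bars stay between 12.1% and 14% from the fifth decile on.

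The members lie on all 5 nuclear chromosomes. Chromosomes 1 to 5 held 22.6%, 19.0%, 17.9%, 12.3% and 27.2% of members, against 25.5%, 16.2%, 20.4%, 14.5% and 22.3% of all genes. In the RefSeq gene order 3 pairs of members are direct neighbours: HAT3.1 with AT3G19515, AT5G09850 with THO1, and AT5G38830 with AT5G38840. That makes 6 members (3.08%) next to another member, against 1.41% of all measured genes. Every member was read by a probe set of the plain kind that the array's naming reserves for probes meant for 1 transcript, as were 97.9% of all genes. A second probe set for the same gene exists for 2 members and did not show the pattern in either: for AT4G12640 it gave -0.37 with H2O2 and -0.12 in light, and for AT3G19515 it gave 0.026 and -0.12. Both second probe sets were dim on every array, at 2.90 to 4.60.

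The dark arrays differed from each other within the group. Replicate 1 lay above replicate 2 for 154 of the 195 genes (79.0%), with a median difference of 0.25, against 46.4% of all genes and a median of -0.020. The gap was over 0.5 in that direction for 44 members, among them CHR17, CCT1 and AT2G20760, and over 0.5 the other way for 3, among them HAT3.1 and PDF2.1. Both neighbouring classes had the same tilt. It was seen in 66 of 88 genes with light more than 0.5 above H2O2 and in 10 of 11 with light more than 0.5 below it. By decile of gene span the median over all genes stayed between -0.055 and -0.0021. Whether the tilt of the members goes with their span was not tested. With H2O2 replicate 1 was the higher for 53.3% of members and in light for 59.0%.

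The Bacillus controls were higher on both dark arrays than with H2O2 or in light. The hybridisation controls were also higher on both dark arrays than on both H2O2 arrays, and overlapped between dark and light. The gap between 3-prime and 5-prime signal overlapped between the groups. The median of the Bacillus control probe sets was 6.48 and 6.37 with H2O2 and 5.70 and 6.71 in light, against 7.28 and 8.12 in the dark. The median level of the 195 genes was 7.02 and 6.95 with H2O2 and 7.13 and 7.08 in light, against 5.63 and 5.29 in the dark. The array with the highest control signal, dark replicate 2, thus had the lowest median of the group. The hybridisation controls were at 9.08 and 8.96 with H2O2 and at 8.68 and 9.54 in light, against 9.47 and 10.1 in the dark. The gap between 3-prime and 5-prime signal of 6 pairs of Arabidopsis control probe sets was 1.56 and 1.73 with H2O2 and 1.33 and 1.58 in light, against 1.52 and 1.75 in the dark, and did not separate the groups. Setting the hybridisation controls equal on all arrays shifted the median of all probe sets to 0.76 for H2O2 minus dark and 0.63 for light minus dark, and 98.9% of calls with H2O2 were higher against 60.0% as deposited, and 88.2% of calls in light against 48.0%. The rule then took 1132 genes, 190 of the 195 among them. The part of the controls in the result was not tested.

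**Figure D5:**
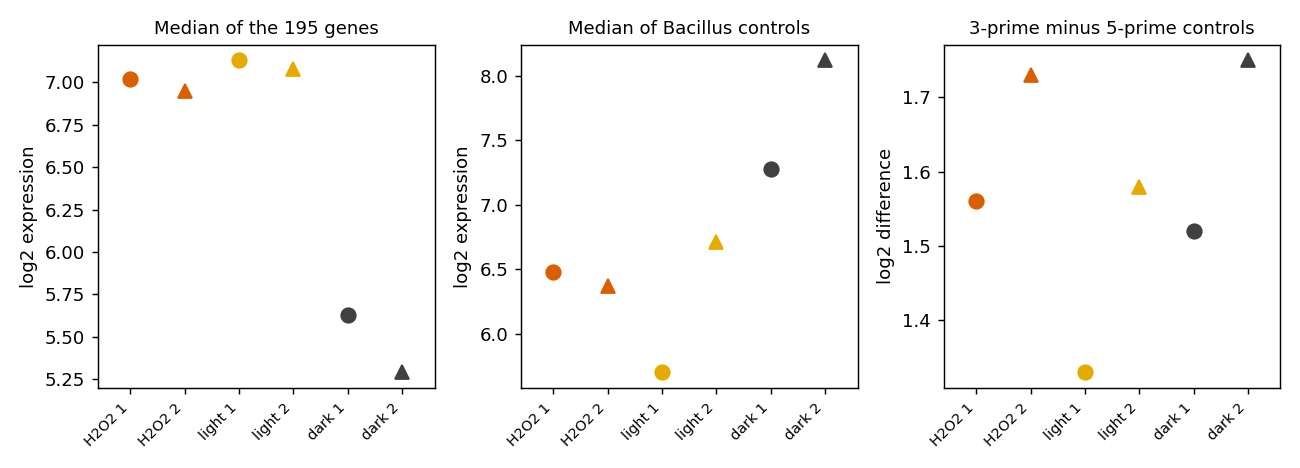
Median log2 level of the 195 genes (left), median log2 level of the Bacillus control probe sets (middle) and mean log2 gap between 3-prime and 5-prime control signal (right) on y axes that do not start at 0, 1 point for each of the 6 arrays on the x axes, with replicate 1 as circles and replicate 2 as triangles. Dark replicate 2 has the lowest point on the left, at 5.29, and the highest in the middle, at 8.12.

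Markers of seedling parts did not follow the pattern of the group. The 3 root hair markers measured averaged 4.74 and 4.66 with H2O2 and 7.5 and 7.14 in light, against 6.51 and 5.94 in the dark. The 5 markers of photosynthetic tissue averaged 11.6 and 11.3 with H2O2 and 13.4 and 13.4 in light, against 11.1 and 11.2 in the dark. The 3 seed reserve markers averaged 7.23 and 7.02 with H2O2 and 3.72 and 4.52 in light, against 4.64 and 5.02 in the dark. They differed from each other: light minus dark was -2.6 for OLEO3, 0.349 for PAP85 and 0.118 for M17. With H2O2 the differences from dark were 0.54, 2.76 and 3.58. The shoot markers were bright on every array. The root hair mean with H2O2 lay under the dim bound of 5.16, as did the seed reserve mean in light and in the dark. None of the 3 sets lay above dark to a like extent with H2O2 and in light. In bulk seedlings a change in the share of a cell type and a change of RNA per cell cannot be told apart.

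Genes outside the group with the most similar profile were AT3G13040, AT5G47210, AT3G61800, SWEETIE and AT2G41550, with Pearson correlations of 0.993 to 0.996 with the mean profile of the members over the 6 arrays. Each was 0.65 to 0.96 higher with H2O2 and 0.73 to 0.93 higher in light, under the bound of 1. The members' own correlations with that mean had a median of 0.979 and a lowest value of 0.877.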

How the data were processed

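The authors deposited 1 table of log2 expression values for 22810 ATH1 probe sets on 6 arrays; RMA and limma are named in the submitters' processing notes, with no version or role, and the log2 scale is inferred from the range of 2.22 to 14.23. The median over tested probe sets was 6.05 and 6.05 with H2O2, 6.07 and 6.01 in light, and 5.93 and 5.93 in the dark. No scanner values were used here, so scale and centring stay inferred, and single-channel levels have no direction to settle. Groups and replicate numbers come from the sample titles. The 64 control probe sets were set aside and 22746 entered a linear model over all arrays (limma 3.58.1, R 4.3.3, moderated by eBayes; 3 residual and 5.84 prior degrees of freedom, 2-sided, Benjamini-Hochberg within a contrast, threshold 0.05). The test was run first on simulated data. Of the tested probe sets, 13513 (59.4%) name 1 gene in the platform annotation, 503 name several and 8730 are unnamed here; the probe set with the highest mean stood for a gene, which left 13356 genes, of which 13286 matched the RefSeq gene table of TAIR10.1. No build is named for the arrays, so no coordinates are given, and no sequence table was used.

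The members and gene lists were chosen with earlier results of these data known. The rule names 40 members (the 10 largest mean differences, 6 brightest, 5 smallest gaps, up to 3 a list, 3 nearest each bound). The members with a gene symbol, and those named for neighbours, a second probe set or a call between light and H2O2, were added after their values were seen. Arrays give no counts, and their number limits the precision: the median SE of a difference was 0.149.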

Additional observations from a re-analysis of the deposited data

How the results depend on the processing

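The group of 195 genes numbered 159 to 241 with each array left out in turn, 194 with the dimmest probe set of a gene in place of the brightest, 131 with the gap held to 0.25, 244 with a gap of up to 1, 170 without the dimmest 40% of probe sets and 160 after a second quantile normalisation. It numbered 307 with differences of at least 0.8, 61 with at least 1.5, as more or fewer genes meet the bound, and 1132 with arrays centred on the hybridisation controls. Without dark replicate 2, 145 of the 195 genes met the rule, and 186 without dark replicate 1. Members called higher with H2O2 numbered 182 to 195 with an H2O2 or dark array left out. The median span was 2979 to 3191.5 bp under all of these. Over all probe sets the calls with H2O2 numbered 4656, and 2135 to 3131 with an array of either compared group left out: 2306 without dark replicate 2, 2173 without H2O2 replicate 1 and 2135 without H2O2 replicate 2. Calls in light numbered 10920 (9315 to 9904, likewise) and between light and H2O2 8981 (6797 to 7863). Leaving out an array of the third group gave 4949 calls with H2O2, 10468 in light and 8843 between light and H2O2. Centring on the hybridisation controls left 2379, 5261 and 2576 calls, and between light and H2O2 54.4% of them were higher, against 44.2% as deposited; the cause was not tested. With an array left out, the lone array of its group is assumed to vary like the others. With the replicate number as a block the calls numbered 4590, 10905 and 8972, and no call of a member against dark changed; the numbers are not shown to pair the arrays, since the correlations of their deviations were -0.032, 0.069 and -0.0019. With quantile normalisation the members called higher in light than with H2O2 numbered 8. Of the differences from dark of 68 named members, 3 changed sign, all with the dimmest probe set: AT4G12640 had -0.371 with H2O2 and -0.117 in light, and AT3G19515 had -0.125 in light. By size, 131 of these differences were classed as moved with centring on the hybridisation controls and 5 as the same. After a second quantile normalisation 19 were classed as moved and 117 as the same. Gaps between light and H2O2 were not recomputed gene by gene. The number of arrays sets the limit on precision, and differences from a dim level in the dark are the least certain.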
